A study of Mus musculus with 12 samples.

Results

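Dusp1, Dusp2, Dusp4, Dusp5, Dusp6 and Dusp10, which encode dual-specificity phosphatases of MAP kinases, were examined with Spry1, Spred1 and Spred2, which encode inhibitors of the Ras to ERK pathway. These 9 genes were chosen by name for this shared role, from the 24439 gene names that carry a value in each library. Earlier results of these data were known at that choice, so the shares of all genes printed beside counts of members are a description. All 9 were among the 12442 genes kept at over 1 TPM in at least 1 library. TPM is a share of all transcripts, out of a total of 1e+06, after correction for transcript length, so that levels of different genes can be set side by side. Printed TPM values were then scaled to equal 75th percentiles of the libraries, so they need not sum to this total. Values and sums of the cell markers are from before that scaling.

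RNA-Seq was available for 12 libraries of mouse CD4 T blast cells in 4 groups of 3. All cells were CD4 T cells taken with microbeads from spleens of the transgenic C57BL/6 C42 strain, whose genome holds a fragment of the human IL3/CSF2 locus. All were activated in 2 ug/ml concanavalin A (ConA) for 40 h and then moved to IL-2 at 50 U/ml, where the labels give 2 days and the methods 30 h. TB IL-2 cells stayed in IL-2 for a last 16 h while TB IL-2nil cells were without it, and TB+ IL-2 and TB+ IL-2nil cells were the same cultures given 20 ng/ml PMA and 2 uM calcium ionophore (PMA/I) for 2 h. Nothing says that the 3 libraries of a group came from separate mice or cultures, so the P-values below measure the spread between these libraries, which may be technical. As the strain is 1 transgenic line and every group had ConA before IL-2, resting or naive T cells are not covered.

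MAP kinases such as ERK, JNK and p38 are switched on by phosphorylation downstream of the T cell receptor and of IL-2. Dual-specificity phosphatases remove these phosphates, and several of their genes are themselves switched on by the kinases, which makes them feedback brakes. Sprouty and Spred proteins act higher up, on the step from Ras to Raf. PMA, a stand-in for diacylglycerol, and the ionophore, which raises calcium, together act like a strong signal from the T cell receptor.

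The libraries labelled TB IL-2nil replicate 3 and TB+ IL-2 replicate 3 went against their labels. Il2, which T cells transcribe on stimulation, was at 3539 TPM in the first and 0.997 TPM in the second. In the 5 other libraries labelled TB+ it was between 4116 and 8949 TPM, and in the 5 other libraries labelled TB it did not exceed 4.17 TPM. In the study's own table of expression values the columns of these 2 names rank the genes exactly as the library of the other name does, while the other 10 columns rank them as the library of the same name. Both libraries were therefore placed in each other's group, and each group below includes its library so placed. Results by the sample labels, and with both libraries left out, stand beside these values.

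CD4 T cell markers Cd3d, Cd3e, Cd3g, Cd4 and Cd28 were present in all 12 libraries, the lowest value of any of them being 51.9 TPM. Of the 5 myeloid markers Lyz2 and Csf1r did not pass 0.252 TPM in any library, while Cd68 was at 0.887 to 3.65 TPM, and Itgam and Adgre1 reached 1.93 and 1.17 TPM. The 3 NK cell markers did not exceed 0.295 TPM, and Ncr1 was listed at 0 in every library. The CD8 markers Cd8a and Cd8b1 summed to 5.41 to 42.8 TPM in the unstimulated TB IL-2 libraries and within that range elsewhere. The steps between low values gave relative depths from 0.409 to 1.25 times the median library, the lowest being TB IL-2nil replicate 2, while the number of reads behind a value is unknown. Short non-coding RNAs made up 16.4 to 53.0% of the summed FPKM of a library. They were at 53.0, 39.7 and 32.2% in TB+ IL-2nil, above all TB+ IL-2 libraries at 22.0, 27.0 and 22.4%. The unstimulated groups overlapped, at 16.4, 42.8 and 21.5% in TB IL-2 and 21.1, 36.1 and 34.9% in TB IL-2nil.

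In mm9, with GENCODE M1 gene models, Dusp1 is a minus-strand gene of chromosome 17, from 26642535 to 26645464. Dusp2 lies on chromosome 2 from 127161895 to 127164112, Dusp4 on chromosome 8 from 35870351 to 35882948, Dusp5 on chromosome 19 from 53603599 to 53616921 and Dusp6 on chromosome 10 from 98725865 to 98730122. Dusp10 lies on chromosome 1 from 185837181 to 185899515, Spry1 on chromosome 3 from 37538869 to 37543520, Spred1 on chromosome 2 from 116947110 to 117008015 and Spred2 on chromosome 11 from 19824378 to 19924029. These 8 genes are on the plus strand. The genes span from 2218 bp for Dusp2 to 99652 bp for Spred2, and the members with the shortest spans, Dusp1, Dusp2, Dusp6 and Spry1, are all under 5000 bp.

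Promoters of 8 of the genes were read from RefSeq on GRCm38.p6, as the 250 bases before the start site, and searched on both strands for 7 motifs. These were TGANTCA for AP-1, TGACGTCA for the cAMP response element (CRE), TGACG for its half-site, GGAAAA for NFAT, TTCNNNGAA for STAT, CCGGAA for ETS and GCGTGGGCG for EGR factors. Dusp1 held the only CRE, 143 bases before the start, beside a further half-site at 191 bases, and a CRE was held by 1.55% of all 32851 promoters. The half-site, which also counts inside a CRE, was held by Dusp1, Dusp5 and Spred2 and by 17.8% of all promoters. NFAT letters were held by Spred2 alone and by 20.4% of all promoters. No AP-1, STAT, ETS or EGR letters were in the 8 windows, and 6.75%, 7.02%, 12% and 0.536% of all promoters held them. Shown are the 3 windows with a match, with the matched letters in capitals, and that of Spry1, which had the largest response to PMA/I and no match. They lie at chr17:26508473-26508722 (minus strand) for Dusp1, chr19:53528895-53529144 for Dusp5, chr11:19924192-19924441 for Spred2 and chr3:37639697-37639946 for Spry1, the last 3 on the plus strand, and each runs 5′ to 3′ towards the gene.
Dusp1: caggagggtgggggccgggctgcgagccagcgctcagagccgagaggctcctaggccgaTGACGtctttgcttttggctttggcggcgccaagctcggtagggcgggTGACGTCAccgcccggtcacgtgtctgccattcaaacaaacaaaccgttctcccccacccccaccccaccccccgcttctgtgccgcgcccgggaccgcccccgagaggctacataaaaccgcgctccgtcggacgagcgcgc
Dusp5: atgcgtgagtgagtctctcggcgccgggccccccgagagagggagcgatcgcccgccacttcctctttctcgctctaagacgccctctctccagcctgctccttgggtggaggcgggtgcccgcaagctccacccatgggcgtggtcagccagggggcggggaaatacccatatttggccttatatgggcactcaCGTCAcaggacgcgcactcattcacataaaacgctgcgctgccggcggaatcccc
Spred2: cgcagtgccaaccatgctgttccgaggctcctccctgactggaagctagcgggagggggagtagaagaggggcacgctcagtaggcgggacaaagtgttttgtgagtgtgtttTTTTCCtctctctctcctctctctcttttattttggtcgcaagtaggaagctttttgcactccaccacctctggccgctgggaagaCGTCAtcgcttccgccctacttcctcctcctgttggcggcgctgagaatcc
Spry1: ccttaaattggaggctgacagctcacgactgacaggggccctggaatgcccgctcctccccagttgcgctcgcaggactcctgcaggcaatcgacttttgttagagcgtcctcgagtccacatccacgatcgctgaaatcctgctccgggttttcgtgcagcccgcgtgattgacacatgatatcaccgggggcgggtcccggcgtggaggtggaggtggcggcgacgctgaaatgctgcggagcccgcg

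**Figure D1:**
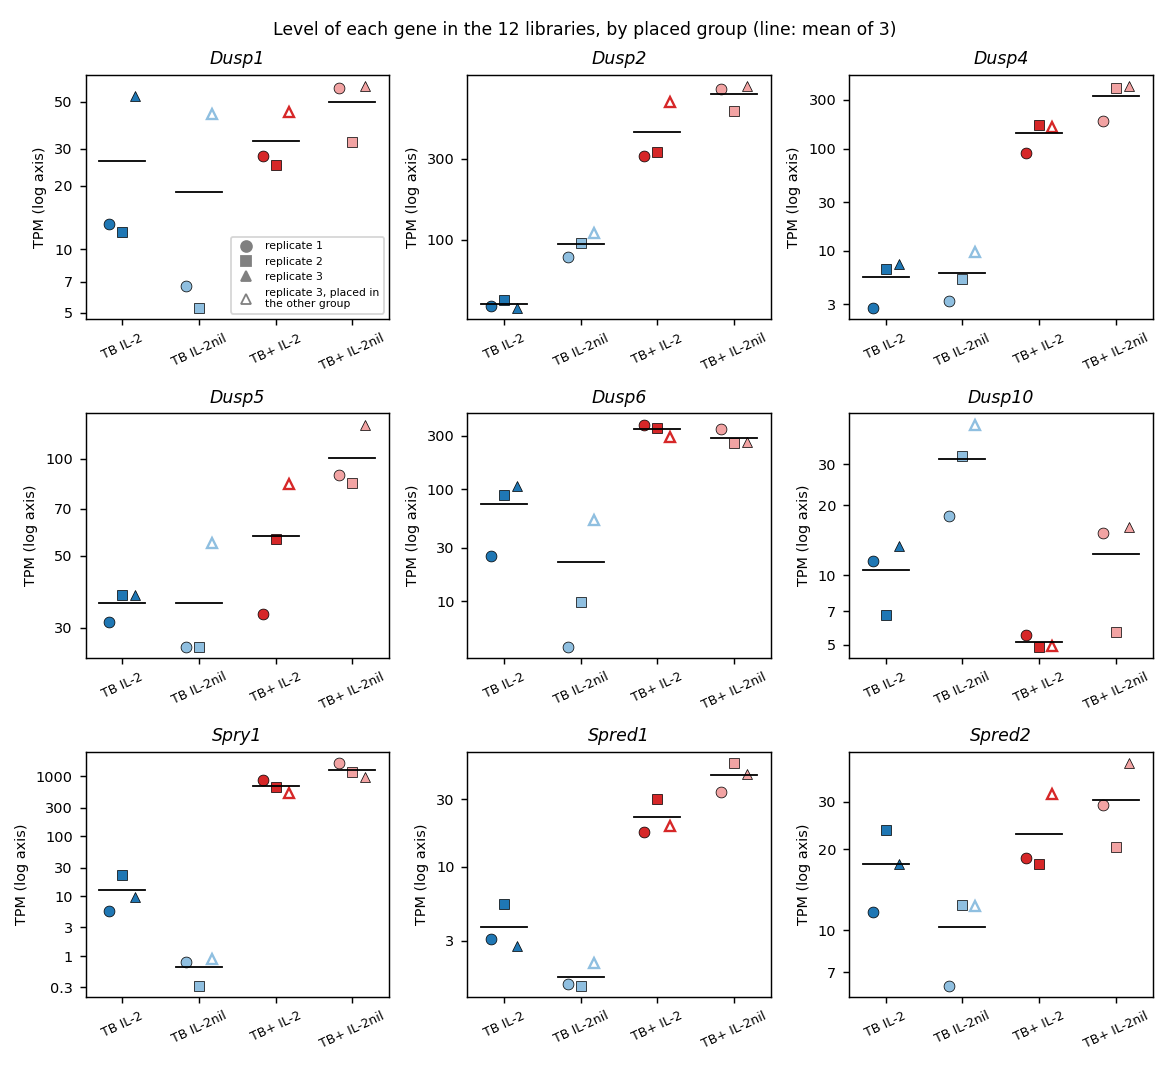
Level of each of the 9 genes in TPM on a log axis in the 12 libraries, by placed group, with symbols for replicate numbers, open symbols for the 2 exchanged libraries and a line at the mean of 3. Spry1 runs from under 1 TPM in TB IL-2nil to 968 TPM and more in TB+ IL-2nil, while Dusp10 is the one gene with its highest values in TB IL-2nil.

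Whether IL-2 alone sets the level of these brakes was asked by comparing TB IL-2 with TB IL-2nil. Spry1, Dusp6 and Spred1 were higher with IL-2, while Dusp2 and Dusp10 were higher without it, and Dusp1, Dusp4, Dusp5 and Spred2 did not pass the test. Of the 9 genes, 3 passed at an adjusted P under 0.05 in the first direction, against 17.3% of all genes tested, and 2 in the other, against 22.3%. With the further demand of more than 3-fold, 2 were called higher with IL-2, Spry1 and Dusp6, against 4.69% of all genes, and none lower, against 2.73%. Tests were made in limma on log2(TPM + 1) with Benjamini-Hochberg adjustment over all 12442 genes, and each log2 difference is on that scale and comes with its standard error (SE).

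Spry1, which encodes an inhibitor of receptor signalling to ERK, was at 5.72, 22.3 and 9.61 TPM in TB IL-2 replicates 1 to 3. In TB IL-2nil it was at 0.789, 0.321 and 0.894 TPM. All libraries with IL-2 were above all without, by 18.8-fold between the means, a ratio that rests on levels under 1 TPM without IL-2. Within the replicate numbers it was 7.24-fold, 69.5-fold and 10.7-fold, the largest with TB IL-2nil replicate 2, the library of lowest relative depth. The log2 difference was 2.84 with SE 0.39 (adjusted P = 0.00041).

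Dusp6, a phosphatase of the cytoplasm that acts on ERK, was at 25.5, 89.4 and 107 TPM in TB IL-2 and at 3.92, 9.93 and 53.3 TPM in TB IL-2nil. The groups overlapped, since the exchanged library TB IL-2nil replicate 3 was above TB IL-2 replicate 1. Within each replicate number Dusp6 was higher with IL-2, by 6.51-fold, 9.0-fold and 2.00-fold. The log2 difference was 2.16 with SE 0.74 (adjusted P = 0.0373), and this call was one of the least steady. It was lost without TB IL-2 replicate 2 (1.90, adjusted P = 0.118), without TB IL-2 replicate 3 (1.78, 0.130), without TB IL-2nil replicate 1 (1.39, 0.141) and without TB IL-2nil replicate 2 (1.96, 0.105), but not with both exchanged libraries left out (3.12, 0.00500). The call was also lost with a pseudocount of 0.1 TPM (2.28, adjusted P = 0.0508), with no filter on low values (0.135) and with limma's trend and robust options (0.0593).

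Spred1, which holds back the activation of Raf, was a low gene at 3.08, 5.46 and 2.78 TPM in TB IL-2 and 1.49, 1.45 and 2.11 TPM in TB IL-2nil. The groups did not overlap, and the log2 difference was 0.80 with SE 0.26 (adjusted P = 0.0330). It no longer passed without TB IL-2 replicate 2 (0.56, adjusted P = 0.132), TB IL-2nil replicate 1 (0.75, 0.0882) or TB IL-2nil replicate 2 (0.74, 0.0910), nor with both exchanged libraries left out (0.91, 0.0531). It also failed with no filter on low values (adjusted P = 0.0913) and with no normalization between libraries (0.75, 0.104).

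Dusp2, a nuclear phosphatase abundant in blood cells, had the tightest values, at 40.9, 44.3 and 39.7 TPM in TB IL-2 against 79.7, 96.1 and 109 TPM in TB IL-2nil. It was lower with IL-2 in every library, by 2.28-fold between the means, with a log2 difference of -1.16 and SE 0.26 (adjusted P = 0.00571). Dusp10, which acts on JNK and p38 rather than ERK, moved the same way. It was at 11.5, 6.75 and 13.4 TPM in TB IL-2 and at 17.9, 32.7 and 44.5 TPM in TB IL-2nil, again without overlap, and the log2 difference was -1.46 with SE 0.40 (adjusted P = 0.0140). The Dusp10 difference no longer passed without TB IL-2 replicate 2 (-1.20, adjusted P = 0.0608), without the exchanged library placed as TB IL-2nil replicate 3 (-1.18, 0.0553), with both exchanged libraries left out (-1.18, 0.0732) or with no filter (0.0575). Without the filter 2 of the 9 genes passed in place of 5.

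For Dusp1, an immediate-early gene whose product acts on p38, JNK and ERK in the nucleus, the replicate number made more difference than IL-2. Replicates 1 and 2 were at 13.2 and 12.1 TPM in TB IL-2 and 6.68 and 5.26 TPM in TB IL-2nil, but the replicate 3 libraries were at 53.2 and 43.8 TPM. The log2 difference was 0.74 with SE 0.72 (adjusted P = 0.433), and it passed only without the exchanged library placed as TB IL-2nil replicate 3 (1.64, adjusted P = 0.0454). Dusp4, Dusp5 and Spred2 overlapped between the groups, with log2 differences of -0.08, 0.08 and 0.72 and adjusted P of 0.906, 0.885 and 0.129. In all, 4 of the 9 genes, Dusp2, Dusp10, Spry1 and Spred1, had groups that did not overlap, against 53.2% of all genes tested.

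Other values moved with the same comparison. The summed level of the 5 CD4 T cell markers was 888 to 1575 TPM in TB IL-2 and 1971 to 2580 TPM in TB IL-2nil. The B cell markers Cd79a, Cd79b and Ms4a1 summed to 5.71 to 11.9 TPM in TB IL-2 and to 22.6 to 28.5 TPM in TB IL-2nil, and none of the 3 was at 0 in any library. In limma 4 of the 5 CD4 T cell markers and all 3 B cell markers passed, lower with IL-2. The 5 myeloid markers summed to 2.33 to 4.34 TPM in TB IL-2 and 4.35 to 4.74 TPM in TB IL-2nil, and none of the 3 kept passed. The 5 markers of regulatory T cells summed to 266 to 510.4 TPM and 222 to 313 TPM, where Lrrc32 and Tnfrsf18 passed higher and Ctla4 lower with IL-2. Their part in the differences was not tested. As these are bulk samples, fewer cells with a transcript and less transcript per cell cannot be told apart.

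**Figure D2:**
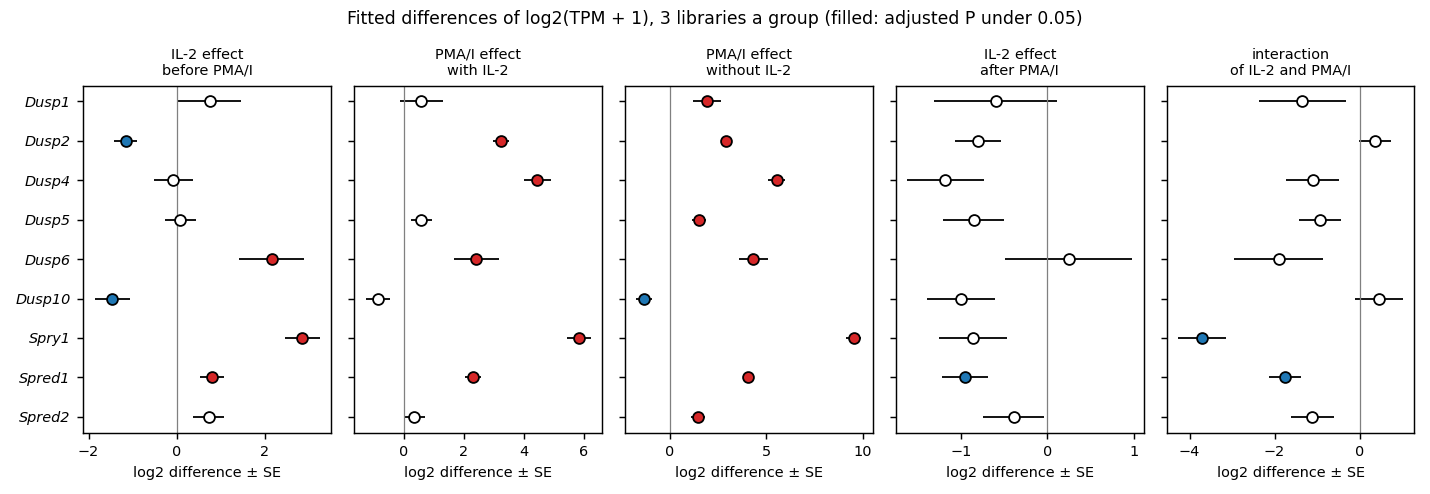
Log2 differences with SE for the 9 genes in the 5 comparisons, from 3 libraries a group, in units of log2(TPM + 1), with filled points for an adjusted P under 0.05 (red for higher, blue for lower). All 9 genes pass in PMA/I without IL-2, 5 pass with IL-2, and Spry1 and Spred1 pass in the interaction.

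The response to PMA/I was first compared where IL-2 had been kept, between TB+ IL-2 and TB IL-2. Spry1, Dusp4, Dusp2, Dusp6 and Spred1 rose, all by more than 3-fold, while Dusp1, Dusp5, Dusp10 and Spred2 did not pass. These 5 of 9 called genes stand against 3.94% of all genes called higher, and no member was called lower, against 3.10%. The values for the 5 that rose did not overlap between the groups, nor did those for Dusp10, and these 6 of 9 stand against 51.7% of all genes. At an adjusted P under 0.05 alone the same 5 passed, against 11.8% of all genes higher and 23.3% lower. The B cell markers summed to 2.20 to 2.86 TPM in TB+ IL-2, below all TB IL-2 libraries, and 2 of the 3 passed. Of the CD4 T cell markers Cd28 rose, and of those of regulatory T cells Lrrc32 fell. Their part was not tested.

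Spry1 reached 875, 652 and 534 TPM in TB+ IL-2, from the 5.72 to 22.3 TPM named above, with a log2 difference of 5.83 and SE 0.39 (adjusted P = 2.5e-06). Dusp4, an inducible nuclear phosphatase of ERK and JNK, was at 2.78, 6.59 and 7.36 TPM in TB IL-2 and at 89.5, 172 and 162 TPM in TB+ IL-2. It thus went from one of the lowest members to a mean of 141 TPM, below those of Spry1, Dusp2 and Dusp6 only. The rise was 25.3-fold between the means (log2 difference 4.46, SE 0.44, adjusted P = 3.89e-05). Dusp2 went from 39.7 to 44.3 TPM to 311, 331 and 647 TPM, with the highest of the 3 in an exchanged library. Its log2 difference was 3.25 with SE 0.26 (adjusted P = 9.57e-06).

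Dusp6 was at 379.9, 356 and 294 TPM in TB+ IL-2, above all TB IL-2 libraries. The rise was 14.9-fold in replicate 1, 3.98-fold in replicate 2 and 2.76-fold in replicate 3, following the spread of its starting level. Its log2 difference of 2.43 with SE 0.74 (adjusted P = 0.0253) no longer passed without TB IL-2 replicate 1 (1.79, adjusted P = 0.102), TB+ IL-2 replicate 1 (2.35, 0.0711) or TB+ IL-2 replicate 2 (2.40, 0.0702). Spred1 was at 17.7, 30.1 and 19.5 TPM in TB+ IL-2 and rose by a similar factor in each replicate number, 5.74-fold, 5.51-fold and 7.03-fold (log2 difference 2.30, SE 0.26, adjusted P = 0.000111).

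Dusp10 was the only one of the 9 with a lower mean in TB+ IL-2, at 5.54, 4.91 and 4.94 TPM, below all TB IL-2 libraries. The log2 difference of -0.87 with SE 0.40 did not pass (adjusted P = 0.115). Dusp5, a nuclear phosphatase specific for ERK, was at 33.0, 56.5 and 83.7 TPM against 31.3, 37.8 and 37.9 TPM, and the log2 difference was 0.59 with SE 0.35 (adjusted P = 0.219). Dusp1 had a log2 difference of 0.58 (adjusted P = 0.558) and Spred2, the relative of Spred1, one of 0.36 (adjusted P = 0.467). Between the means, the 8 genes with more in TB+ IL-2 thus ran from 1.24-fold for Dusp1 to 54.8-fold for Spry1.

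After 16 h without IL-2 the response to PMA/I passed the test for all 9 genes. Between TB+ IL-2nil and TB IL-2nil, 8 of the 9 genes rose and Dusp10 fell, against 20.1% of all genes higher and 41.1% lower at the same adjusted P. Above 3-fold, 6 rose, Spry1, Dusp4, Dusp6, Spred1, Dusp2 and Dusp1, against 7.78% of all genes called higher, and none was called lower, against 10.7%. For 8 of the 9, all but Dusp1, the groups did not overlap, against 64.1% of all genes. In the same comparison the B cell markers summed to 3.60 to 11.4 TPM in TB+ IL-2nil and the CD4 T cell markers to 848 to 1602 TPM, each below all TB IL-2nil libraries. All 3 B cell markers, 3 of the 5 CD4 T cell markers and the myeloid marker Cd68 fell, and Tnfrsf18 of the regulatory T cell markers rose, and their part in the differences was not tested.

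Spry1 was at 1642, 1159.8 and 968 TPM in TB+ IL-2nil, from under 1 TPM in each TB IL-2nil library. The log2 difference of 9.54 (SE 0.39, adjusted P = 6.19e-08) was the largest of any member in any comparison. Without the added 1 TPM the means differed by 1881-fold, a ratio that rests on the low level before stimulation. Dusp4 was at 184, 388 and 412 TPM, from 3.25, 5.28 and 9.68 TPM, with a log2 difference of 5.56 and SE 0.44 (adjusted P = 3.39e-06). Dusp2 was at 771, 574 and 808 TPM, with a log2 difference of 2.90 and SE 0.26 (adjusted P = 7.77e-06), so that Dusp2 and Dusp4 had the highest means of the 6 phosphatases here.

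Dusp6 reached 344, 261 and 264 TPM, and Spred1 33.8, 53.6 and 45.0 TPM. Their log2 differences were 4.33 with SE 0.74 (adjusted P = 0.000426) and 4.06 with SE 0.26 (adjusted P = 1.03e-06). The level of Dusp6 reached here overlapped with that in TB+ IL-2, from a lower mean before PMA/I.

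Dusp5, at 88.9, 83.9 and 127 TPM, and Spred2, at 29.2, 20.4 and 41.7 TPM, rose by less than 3-fold. Their log2 differences were 1.52 with SE 0.35 (adjusted P = 0.00311) and 1.47 with SE 0.36 (adjusted P = 0.00405). Dusp1 was at 58.1, 32.3 and 59.8 TPM, and its overlap with TB IL-2nil came from the 43.8 TPM of the exchanged library. Its log2 difference was 1.93 with SE 0.72 (adjusted P = 0.0358). It no longer passed without TB IL-2nil replicate 1 (1.56, adjusted P = 0.120), TB IL-2nil replicate 2 (1.41, 0.139), TB+ IL-2nil replicate 1 (1.80, 0.0965) or TB+ IL-2nil replicate 3 (1.78, 0.0945), nor with no filter (adjusted P = 0.128), no normalization (1.40, 0.0929) or limma's trend and robust options (0.0543), while with both exchanged libraries left out it was 2.83 (adjusted P = 0.00285).

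Dusp10 fell from 17.9, 32.7 and 44.5 TPM to 15.1, 5.68 and 16.1 TPM. The log2 difference was -1.32 with SE 0.40 (adjusted P = 0.0137). It did not pass with the libraries scaled to a common median (-0.88, adjusted P = 0.0807), with no filter (0.0550), with both exchanged libraries left out (-1.04, 0.0785), without the exchanged library placed as TB IL-2nil replicate 3 (-1.04, 0.0605) or without TB+ IL-2nil replicate 2 (-0.89, 0.0557).

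The 2 stimulated groups were compared to ask whether IL-2 changes the level reached after PMA/I. In TB+ IL-2 all members except Dusp6 had the lower mean, and within each of the 3 replicate numbers all 8 were lower in TB+ IL-2 than in TB+ IL-2nil. All genes were not counted in this way, and the median log2 difference was -0.85 for the 9 and -0.04 for all genes. Spred1 alone passed the test, lower with IL-2 (log2 difference -0.96, SE 0.26, adjusted P = 0.0261), against 8.40% of all genes lower and 12.9% higher at this adjusted P. No member was called at 3-fold, against 0.410% of all genes lower and 3.21% higher. Unadjusted, 5 of the 9 genes had a P under 0.05, against 35.2% of all genes. For 5 of 9, Dusp4, Dusp5, Dusp10, Spry1 and Spred1, the groups did not overlap, against 37.2% of all genes. All 3 B cell markers and the CD4 T cell markers Cd3d and Cd4 also passed, lower with IL-2, and their part was not tested.

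Dusp4 was lower with IL-2 by a similar factor in each replicate number, with TB+ IL-2nil above TB+ IL-2 by 2.06-fold, 2.26-fold and 2.54-fold. Spry1 showed 1.88-fold, 1.78-fold and 1.81-fold in the same direction. With the replicate number as a block the Dusp4 difference passed (log2 difference -1.18, SE 0.16, adjusted P = 0.000976), as did Dusp2 (-0.81, adjusted P = 0.0234) and Dusp5 (-0.85, adjusted P = 0.0182), so that 4 members were lower with IL-2 instead of 1. In either direction 4186 of all 12442 genes passed with the block, from 2644 in the main fit, so the number passing rose over all genes as well. Without the block Dusp4 had an adjusted P of 0.0800, Dusp2 of 0.0502 and Dusp5 of 0.108, and Spry1, at 0.142, passed neither way (0.138 with the block). The Spred1 difference no longer passed without TB+ IL-2 replicate 1 (-0.81, adjusted P = 0.0817), the exchanged library placed as TB+ IL-2 replicate 3 (-0.88, 0.0932), TB+ IL-2nil replicate 2 (-0.81, 0.0754) or TB+ IL-2nil replicate 3 (-0.93, 0.0601), nor with both exchanged libraries left out (-0.88, 0.111), no filter (0.0792) or no normalization (-0.58, 0.292). Dusp2 passed with the filter of over 5 TPM in at least 3 libraries (adjusted P = 0.0405), median normalization (0.0274), short non-coding RNAs left out (0.0452) and limma's trend and robust options (0.0406). It also passed without that exchanged library (-1.14, adjusted P = 0.00731) and without TB+ IL-2nil replicate 2 (-0.96, 0.0416), and Dusp10 passed without the latter (-1.44, 0.0186).

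The order of the 4 groups by mean level was the same for Spry1, Spred1, Dusp1 and Spred2, with TB+ IL-2nil first, TB+ IL-2 next, then TB IL-2, and TB IL-2nil last. For Spry1 and Spred1 no neighbours in this order overlapped, while for Dusp1 and Spred2 all neighbours overlapped. Dusp2, Dusp4 and Dusp5 had the same first 2 places but TB IL-2nil above TB IL-2, and only for Dusp2 were these last 2 groups apart. Dusp6 had TB+ IL-2 first, overlapping with TB+ IL-2nil. Dusp10 had TB IL-2nil first at 31.7 ± 13.3 TPM (SD, n = 3), then TB+ IL-2nil at 12.3 ± 5.77, TB IL-2 at 10.5 ± 3.41 and TB+ IL-2 at 5.13 ± 0.356 TPM, of which the middle groups overlapped.

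Whether PMA/I acts differently with and without IL-2 was tested as the interaction. For Spry1 the PMA/I effect was smaller with IL-2 by 3.71 on the log2 scale (interaction -3.71, SE 0.56, adjusted P = 0.0118), and for Spred1 by 1.76 (interaction -1.76, SE 0.37, adjusted P = 0.0309). These 2 of 9 stand against 2.66% of all genes with a lower and 1.57% with a higher PMA/I effect under IL-2. Before stimulation Spry1 was higher with IL-2, at 12.5 ± 8.67 against 0.668 ± 0.305 TPM (SD, n = 3), and this difference passed. After stimulation its means lay in the other direction, at 687 ± 173 against 1257 ± 348 TPM. That second difference did not pass in limma (log2 difference -0.86, SE 0.39, adjusted P = 0.142). The interaction was negative for 7 of the 9 genes, and it was 0.35 for Dusp2 and 0.46 for Dusp10, neither of which passed (adjusted P = 0.604 and 0.662). The share of all genes with a negative value was not counted, and the median was -1.11 for the 9 and 0.16 for all genes. Of the marker genes only Lrrc32 passed in the interaction, also in the negative direction, and its part was not tested.

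The exchange of the 2 libraries does not alter an interaction estimate, only its SE, because both libraries enter with the same sign. With both left out Spry1 was at -3.64 (adjusted P = 0.0693) and Spred1 at -1.79 (adjusted P = 0.101), so neither passed. Spry1 passed without any 1 library, whereas Spred1 no longer passed in 8 of these 12 fits (adjusted P of 0.0519 to 0.0794). These were the fits without replicate 1 or 2 of TB IL-2nil or TB+ IL-2nil, replicate 2 or 3 of TB IL-2, and replicate 1 or the placed replicate 3 of TB+ IL-2. With the replicate number as a block Dusp4 passed as well (interaction -1.10, SE 0.23, adjusted P = 0.0221). Of all 12442 genes 1478 passed with this block, from 526 in the main fit.

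**Figure D3:**
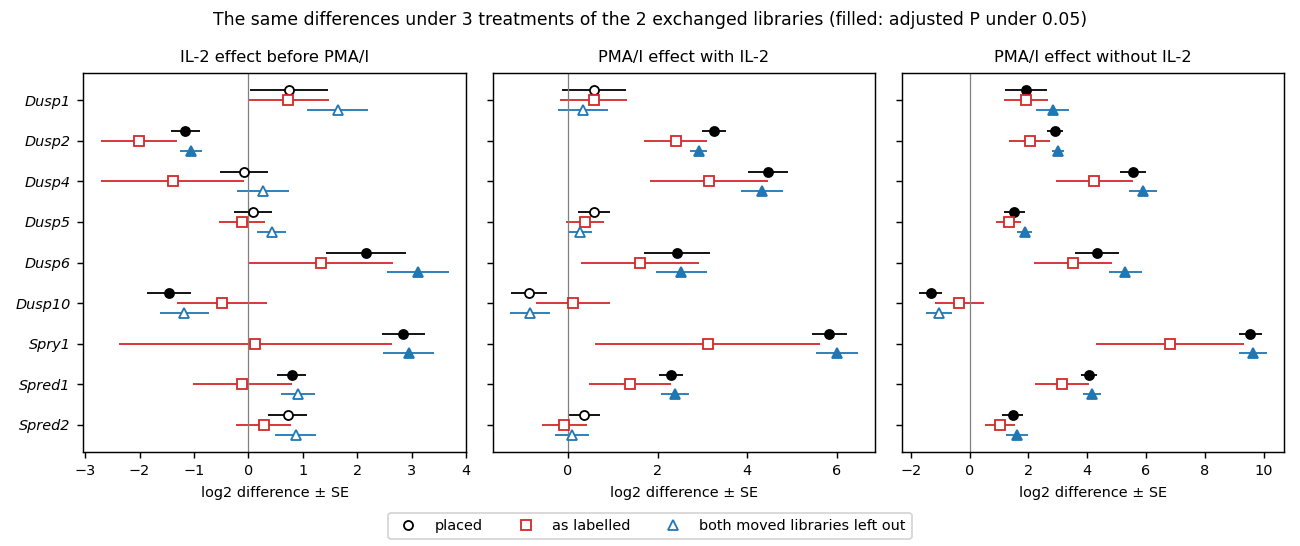
Log2 differences with SE for the 9 genes in 3 comparisons, with the 2 libraries exchanged (black circles), by their labels (red squares) or left out (blue triangles), filled where the adjusted P is under 0.05. By the labels no point is filled, and with both libraries left out Spry1, Dusp4, Dusp2, Dusp6 and Spred1 keep filled points in both PMA/I panels.

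By the sample labels no member passed in any of the 5 comparisons, in which 0.121, 0.498, 5.38, 0.217 and 0% of all genes did, in the order given above. Unadjusted in the same limma fits, 1, 2, 7, 2 and 0 of the 9 members had a P under 0.05, against 11.5, 14, 32.3, 17.5 and 3.32% of all genes. By the labels Spry1 read 0.789, 0.321 and 534 TPM in TB IL-2nil and 875, 652 and 0.894 TPM in TB+ IL-2. The SE of its log2 differences rose to 2.51, and its IL-2 difference before PMA/I was 0.13 (adjusted P = 0.994). For Dusp4 the label groups read 3.25, 5.28 and 162 TPM and 89.5, 172 and 9.68 TPM. For PMA/I without IL-2 by the labels, the log2 differences were 6.83 for Spry1 (adjusted P = 0.103) and 4.25 for Dusp4 (adjusted P = 0.0739), in the same direction as with the exchange. With both libraries left out 3 members passed for IL-2 before PMA/I, 5 for PMA/I with IL-2, 8 without and 2 for IL-2 after PMA/I, against 32.1, 30.7, 53.4 and 9.62% of all genes. For the interaction none passed in limma, against 0.0321%, though 7 of the 9 had an unadjusted P under 0.05, against 17.9%.

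Dusp1, Dusp2, Dusp4, Dusp5, Dusp6, Dusp7, Dusp8, Dusp10 and Dusp16, the MAP kinase phosphatases with a kinase-binding domain that were kept, were summed to describe the family's make-up. Their sum was 149, 243 and 289.8 TPM in TB IL-2 and 179, 209 and 348 TPM in TB IL-2nil. It was 874, 967 and 1272 TPM in TB+ IL-2 and 1511, 1379 and 1746 TPM in TB+ IL-2nil, so that the stimulated libraries were all above the unstimulated ones. In TB IL-2 Dusp6 made up a median of 36.8% of the sum (17.1 to 36.8%) and Dusp2 18.2% (13.7 to 27.4%). In replicate 1 of TB IL-2, however, Dusp2 had the larger share of the pair. In TB IL-2nil Dusp2 was ahead of Dusp6 in every library, at 44.5% (31.4 to 46.0%) against 4.75% (2.19 to 15.3%). After PMA/I the share of Dusp4 was 12.7% in TB+ IL-2 and 23.6% in TB+ IL-2nil, from 2.54% and 2.53% before, while Dusp7 went from 15.2% and 15.5% to 0.613% and 0.549% (all medians of 3).

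**Figure D4:**
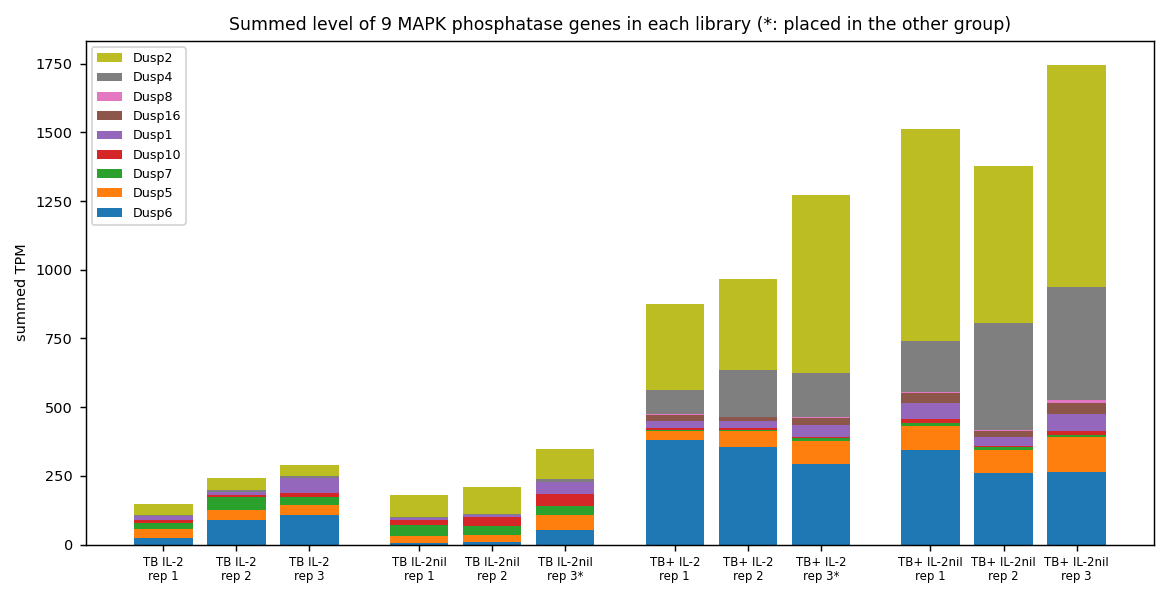
Summed TPM of 9 MAP kinase phosphatase genes in each of the 12 libraries from 0, stacked by gene and ordered by placed group, with an asterisk at the exchanged libraries. The 6 unstimulated libraries stay at or under 348 TPM and the 6 stimulated ones start at 874 TPM, and Dusp2, Dusp4 and Dusp6 together make up 46.3 to 57.7% of the former bars and 85.0 to 89.2% of the latter.

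Further phosphatases and Sprouty genes outside the 9 were read from a fixed list. Of 8 other MAPK phosphatases 7 were kept, and of Spry2, Spry3, Spry4 and Spred3 only Spry2. Before PMA/I none of these 8 kept genes passed for IL-2. With IL-2, 4 of the 7 phosphatases rose on PMA/I and 2 fell, against 11.8% and 23.3% of all genes, and their median log2 difference was 0.77, where that of all genes was -0.22. For the 9 members the median was 2.30.

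Dusp16, a phosphatase of JNK and p38, was at 1.43, 1.47 and 1.47 TPM in TB IL-2 and at 21.0, 15.3 and 23.6 TPM in TB+ IL-2. Its log2 difference was 3.07 with SE 0.23 (adjusted P = 5.95e-06). Dusp14, a small phosphatase without a kinase-binding domain, rose by 2.96 (adjusted P = 2.18e-05), and Dusp8 by 1.57 (adjusted P = 0.00316) from 0.0685 TPM or less. Dusp7, which like Dusp6 acts on ERK in the cytoplasm, went the other way, from 22.7, 44.7 and 30.1 TPM to 4.58, 5.93 and 8.95 TPM (log2 difference -2.15, SE 0.27, adjusted P = 0.000187). Dusp19 also fell (-0.80, adjusted P = 0.0319), Dusp3 rose (0.77, adjusted P = 0.0125) from about 1 TPM or less, and Dusp22 at -0.29 did not pass (adjusted P = 0.269). Spry2 did not exceed 2.1 TPM in any library, and its log2 difference was 0.66 with IL-2 (adjusted P = 0.0526) and 1.09 without (adjusted P = 0.00235). Of the pair of cytoplasmic ERK phosphatases, Dusp6 thus rose and Dusp7 fell in the same libraries.

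In the cascade itself, of 23 listed core genes from Ras activators to the kinases, 4 rose, 3 fell and 16 did not pass on PMA/I with IL-2, with a median log2 difference of -0.25, beside -0.22 for all genes. The 4 and 3 of 23 stand against 11.8% of all genes higher and 23.3% lower. At more than 3-fold, 3 of 23 were called higher, against 3.94% of all genes, and none lower, against 3.10%. The 3 called genes were Map3k8, the kinase TPL2 (3.36, SE 0.51, adjusted P = 0.000643), Map2k3, which activates p38 (3.23, SE 0.40, adjusted P = 0.000166), and Ksr1, an ERK scaffold (2.50, SE 0.24, adjusted P = 3.6e-05). Map3k8 was also the one core gene called in the IL-2 comparison before PMA/I, at 17.9, 44.9 and 42.5 TPM with IL-2 and 6.55, 5.26 and 26.2 TPM without (1.62, SE 0.51, adjusted P = 0.0264). Its groups overlapped, and its fitted difference of 3.08-fold was close to the 3-fold limit. At an adjusted P under 0.05 alone, 3 of the 23 core genes were higher with IL-2, against 17.3% of all genes, and 3 lower, against 22.3%.

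Of 14 other brakes on Ras and ERK, 4 rose and 5 fell on PMA/I with IL-2, against the same 11.8% and 23.3% of all genes. Errfi1, which encodes an inhibitor of growth factor receptors, rose by 4.12 (adjusted P = 6.16e-06), and Sh2b3, an adaptor that restrains cytokine signals, by 1.73 (adjusted P = 0.000977). Rasa1, a Ras GTPase-activating protein, fell by 1.69 on the log2 scale (adjusted P = 0.000746). Before PMA/I, 7 of the 14 were lower with IL-2, against 22.3% of all genes, and 2 higher, against 17.3%, and the median log2 difference was -0.53, where that of all genes was -0.13. Both called genes were lower with IL-2. Dgka, the diacylglycerol kinase alpha that removes the signal which PMA imitates, was at 210.1, 122 and 230.2 TPM with IL-2 and at 656, 582 and 628 TPM without (-1.78, SE 0.26, adjusted P = 0.000514), and Rasa3, a GTPase-activating protein, differed by -1.80 (SE 0.30, adjusted P = 0.00119).

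Of 12 genes known to respond to ERK, 11 were kept, and 8 rose, against 11.8% of all genes, and none fell on PMA/I with IL-2, against 23.3%, with a median log2 difference of 3.30. Egr3 (8.84, adjusted P = 1.03e-07), Egr2 (8.08, adjusted P = 3.3e-09) and Fosl1 (3.30, adjusted P = 3.34e-06) had the lowest adjusted P. The largest of these responses exceeded that of Spry1 with IL-2, while without IL-2 Spry1, at 9.54, was above Egr2 at 8.81 and Egr3 at 8.79. Fos, which forms AP-1 with Jun proteins, was the one gene of this list called for IL-2 before PMA/I, at 2.84, 15.5 and 55.3 TPM with IL-2 and 0.736, 0.194 and 4.93 TPM without (2.73, SE 0.92, adjusted P = 0.0348). Its highest unstimulated value was in TB IL-2 replicate 3.

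**Figure D5:**
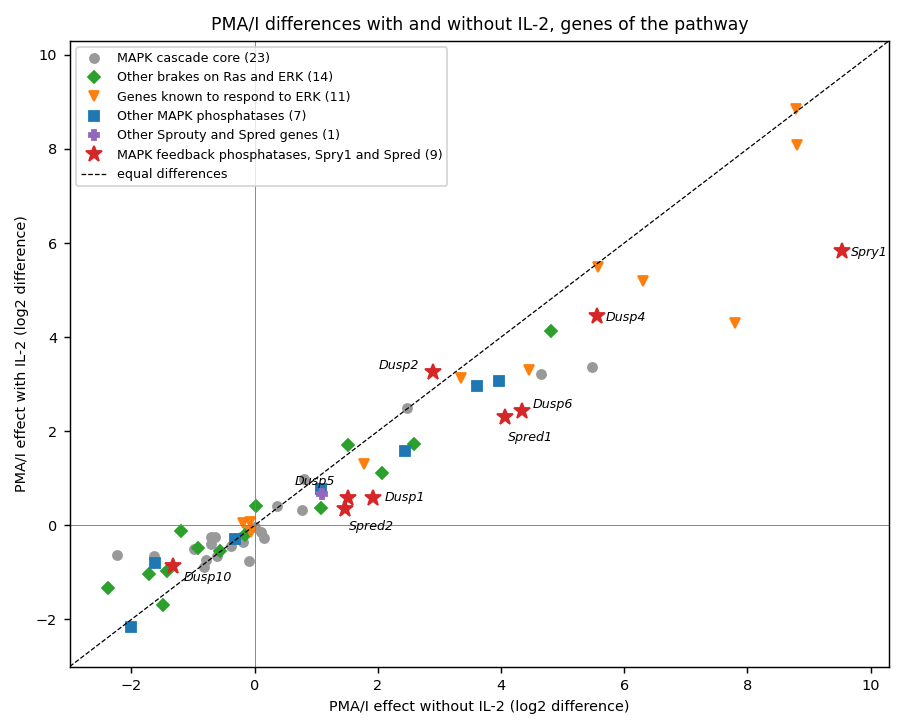
PMA/I effect with IL-2 against that without IL-2, both as log2 differences of log2(TPM + 1), for the 9 genes (red stars, named) and the kept genes of the 5 other lists, with a dashed line where both are equal. Spry1 lies farthest below the line among the 9, at 9.54 without and 5.83 with IL-2, and Dusp2 and Dusp10 lie above it.

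The 8920 genes that reached 10 TPM in a library were searched for those whose log2 values followed each member most closely over the 12 libraries. The libraries fall into a stimulated and an unstimulated set, which any such correlation pools, so the Pearson coefficients are a description. The closest genes were Lilrb4a (0.995), Pwp1 (0.994) and Ppan (0.993) for Spry1, and Ahr (0.987), Pwp1 (0.985) and Mak16 (0.983) for Spred1. They were Gem (0.991), Klf9 (0.982) and Slco4a1 (0.981) for Dusp4, Gna13 (0.985), Fbxo11 (0.982) and Arl5b (0.980) for Dusp2, and Hif1a (0.967), H3f3b (0.965) and Dhps (0.960) for Dusp6. Dusp10 was followed by Lgals4 (0.982), Smg9 (0.967) and Zfp219 (0.964). The coefficients were lower for Dusp5, with 3010003L21Rik (0.907), Zcchc9 (0.902) and Rap1b (0.901), for Spred2, with Jund (0.907), Tmcc3 (0.897) and Mtx1 (0.890), and for Dusp1, with Srsf6 (0.899), Pmaip1 (0.888) and the activation marker Cd69 (0.884).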

How the data were processed

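Directional libraries of rRNA-depleted total RNA were sequenced by the authors. The deposited values are FPKM of 24439 gene names, which the authors made with Trimmomatic 0.32, HISAT2 2.1.0 on mm9 and StringTie 1.3.3 (per the submitters' processing notes). The methods name TPM, but the tables hold FPKM, which sum to 193815 to 420487 in a library, and no counts. The 9 genes and all lists were chosen with earlier results of these data known.

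Here each library was brought to a total of 1e+06 TPM. A gene was kept if it exceeded 1 TPM in any library, and the 75th percentiles of the libraries were made equal. A model of 4 groups was fitted to log2(TPM + 1) with limma 3.58.1 under R 4.3.3, leaving 8 residual degrees of freedom, after tests on simulated data. This scale understates changes of low genes. A gene passed at a Benjamini-Hochberg adjusted P under 0.05 over all 12442 genes and was called at over 3-fold besides. The interaction has no fold limit. The median gene differed by -0.13, -0.22, -0.38 and -0.04 in the 4 comparisons in the order of the report, and by 0.16 in the interaction, as log2 values.

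Named genes were the 9 members, the other phosphatases and Sprouty genes kept, the 3 genes of each list with the lowest adjusted P among called genes in PMA/I with IL-2 and in IL-2 before PMA/I, and the 3 genes most like each member. Il2 and the cell markers were named besides, as checks of the labels. One B cell marker is not reported here and is in none of the sums.

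Replicate numbers come from the labels. With the 2 libraries exchanged, all 18 correlations between deviations of same-numbered libraries were over 0.1 (0.101 to 0.531), and by the labels 11 of 18 were. The numbers therefore served for ratios within a replicate number and as a block in an alternative fit. The main model has no block, so its SE and P ignore this pairing. The most alike libraries correlated at 0.983, so none was a copy. Gene positions are those of GENCODE M1 on mm9 and promoters those of RefSeq on GRCm38.p6. Other steps ran in Python 3.11.15 (pandas 2.3.3, numpy 2.4.6) and figures in matplotlib 3.10.9. Alternatives are given in the closing section.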

Additional observations from a re-analysis of the deposited data

Results flagged for a closer look

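The difference between the PMA/I effects with and without IL-2 passed its own test for 2 of the 9 genes. For Spry1 the interaction was -3.71 on the log2 scale (SE 0.56, adjusted P = 0.0118), and for Spred1 it was -1.76 (SE 0.37, adjusted P = 0.0309), both in limma over all 12442 genes. With both exchanged libraries left out neither passed, at -3.64 (adjusted P = 0.0693) and -1.79 (adjusted P = 0.101). In each of the 3 replicate numbers Spry1 rose by more without IL-2, by 2080.4-fold, 3615-fold and 1082-fold, than with IL-2, by 153-fold, 29.3-fold and 55.6-fold. For Spred1 these were 22.8-fold, 36.9-fold and 21.4-fold against 5.74-fold, 5.51-fold and 7.03-fold. The ratios of Spry1 without IL-2 rest on starting levels of 0.321 to 0.894 TPM.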

How the results depend on the processing

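With the libraries by their labels, with or without a replicate block, the called members fell to 0 from 2 (IL-2 before PMA/I), 5 (PMA/I with IL-2), 6 (PMA/I without IL-2) and 2 (interaction), and 5 log2 differences turned, of which only that of Spred1 before PMA/I had passed. These were, before PMA/I, Dusp5 (-0.12) and Spred1 (-0.11), on PMA/I with IL-2 Dusp10 (0.11) and Spred2 (-0.082), and after PMA/I Dusp6 (-0.57). With both exchanged libraries left out Dusp4 before PMA/I (0.27) and the Dusp2 interaction (-0.089) turned, neither of which had passed, and the interaction calls fell to 0. The 2 calls for IL-2 before PMA/I fell to 1 with a pseudocount of 0.1 TPM, with no filter on low values, and with limma's trend and robust options. The 2 interaction calls fell to 0 with no filter and to 1 with no normalization between libraries. Leaving out each library in turn gave 1 to 3 called for IL-2 before PMA/I, 4 to 5 for PMA/I with IL-2, 5 to 8 for PMA/I without IL-2, 0 for IL-2 after PMA/I and 1 to 2 for the interaction, and before PMA/I Dusp4 ran from -0.40 to 0.28 and Dusp5 from -0.095 to 0.43. With the replicate block, which left every other call as it was, the number passing for IL-2 after PMA/I rose from 1 to 4 and the interaction calls from 2 to 3. Over all 12442 genes these numbers rose from 2644 to 4186 and from 526 to 1478. The cause of each change was not tested. Without the filter the members passing fell from 5 to 2 for IL-2 before PMA/I, and without the filter or without normalization from 1 to 0 for IL-2 after PMA/I, while 2 passed there with the stricter filter, median normalization, short non-coding RNAs left out, or limma's trend and robust options. Dusp6 with IL-2 passed neither without the filter (PMA/I, adjusted P = 0.104) nor with quantile normalization (0.0614). Read numbers are unknown, so no counting error could be given, and a group of 3 libraries limits the precision.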
